A study of Mus musculus with 15 samples.

Results

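The enzymes of the urea cycle and of amino acid catabolism were followed in the liver of female C57BL/6 mice of 3 groups, with 5 mice in each. The set is a named list of 49 genes, found by symbol among the 55450 gene IDs of the count table, and all 49 passed the filter on low counts that left 15808 genes for testing. The rule for the list uses no measured value, though its members were chosen with earlier results of these data known. The genes were ordered here into 10 groups by role, from the urea cycle to glycine and choline. When the experiment began the Adult mice, A1 to A5, were aged 6 months while Old mice (O1 to O5) started at 22 months, and both received corn oil as vehicle by daily gavage. PDX mice (P1 to P5) were also 22 months old and received protectin DX, a lipid derived from docosahexaenoic acid, at 30 ng per g of body weight in corn oil. Gavage lasted 9 weeks by the protocol and 8 weeks by the design text. Livers were taken after it, so all mice were older at collection than the ages given here. All animals were wild type and fed chow, each library came from the bulk liver of 1 mouse, and no Adult mice received protectin DX.

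Amino acids that are not needed for protein are broken down mainly in the liver. Transaminases move their amino groups to glutamate, glutamate dehydrogenase releases the nitrogen as ammonia, and the urea cycle fixes ammonia into urea across the mitochondria and the cytosol of periportal hepatocytes. Glutamine synthetase takes up what is left in the few hepatocytes around the central vein. The carbon skeletons go through separate routes for tyrosine, tryptophan, histidine, proline, serine and the branched chains to enter gluconeogenesis, ketogenesis or the citric acid cycle. Glucagon, glucocorticoids and protein intake are known to raise the expression of many of these enzymes.

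The livers held between 22424383 and 36070835 counted read pairs each, and the smallest count of any member in any mouse was 159, so counting error was small beside the differences between mice. Levels are given as CPM (counted read pairs scaled to a common library size) after correction by the trimmed mean of M-values (TMM), and the scaling factors ranged from 0.884 to 1.08 except in O2, at 1.33. O2 and O5 stood apart from the other Old livers. The summed level of 8 hepatocyte markers, albumin among them, was 113208 CPM in O2 and 107907 CPM in O5, against 153648 to 265565 CPM in the other 13 mice. The 5 T cell markers summed to 155.8 CPM in O2 and to between 1.84 and 21.2 CPM elsewhere, and the 7 Kupffer cell markers to 2753 CPM in O2 and to between 266.9 and 1457 CPM elsewhere. O5 had the highest sums of the 5 cholangiocyte markers, at 40.1 CPM, and of the 6 stellate cell markers, at 839.7 CPM. In bulk liver, fewer hepatocytes and less mRNA per hepatocyte cannot be told apart, so the counts of called genes below are also given without O2 and O5.

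Together the 49 members made up 3.04% to 3.91% of all counted pairs in the Adult livers. The share was 1.45% to 4.55% in the Old livers and 2.06% to 2.72% in the PDX livers, so every PDX liver lay below every Adult liver while the Old livers spread across both. Per length, as FPKM (the CPM for each kilobase of exon), Hpd was the most abundant member in the Adult livers, with a mean of 1718 FPKM, followed by Tat at 1138, Arg1 at 820.2, Cps1 at 745, Oat at 709 and Ass1 at 679 FPKM. Hpd encodes the dioxygenase of the second step of tyrosine breakdown, and Cps1 the enzyme that commits ammonia to the urea cycle. The least abundant were Sdsl, Mccc1 and Bcat2, at 7.73, 9.24 and 10.5 FPKM. Bcat2 is the mitochondrial branched-chain transaminase, whose activity is known to be low in liver.

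Promoter sequences are shown for 3 members that were lower in Old livers (Ass1, Oat and Afmid) and for 3 that parted in liver O5 (Got1 and Tat, which were high there, and Otc, which was low). RefSeq promoters on GRCm38.p6 matched 40 of the 49 members. Each line gives the bases just upstream of the annotated start, 5′ to 3′ on the strand of the gene, and capitals mark the CCAAT box (CCAAT, or ATTGG where it lies on the other strand), a common proximal promoter element. The regions are chr2:31470020-31470206 on the plus strand for Ass1, chr7:132576399-132576648 on the minus strand for Oat, chr11:117825669-117825918 on the plus strand for Afmid, chr19:43524606-43524855 on the minus strand for Got1, chr8:109990186-109990435 on the plus strand for Tat and chrX:10252055-10252304 on the plus strand for Otc.
Ass1: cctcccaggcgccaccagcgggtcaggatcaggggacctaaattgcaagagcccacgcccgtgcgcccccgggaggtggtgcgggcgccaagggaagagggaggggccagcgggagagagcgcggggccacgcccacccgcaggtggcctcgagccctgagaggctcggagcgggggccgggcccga
Oat: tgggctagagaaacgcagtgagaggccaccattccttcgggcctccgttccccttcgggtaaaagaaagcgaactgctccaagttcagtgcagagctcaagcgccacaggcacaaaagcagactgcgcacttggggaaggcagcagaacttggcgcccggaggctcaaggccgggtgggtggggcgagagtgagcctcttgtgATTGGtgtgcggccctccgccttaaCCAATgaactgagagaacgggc
Afmid: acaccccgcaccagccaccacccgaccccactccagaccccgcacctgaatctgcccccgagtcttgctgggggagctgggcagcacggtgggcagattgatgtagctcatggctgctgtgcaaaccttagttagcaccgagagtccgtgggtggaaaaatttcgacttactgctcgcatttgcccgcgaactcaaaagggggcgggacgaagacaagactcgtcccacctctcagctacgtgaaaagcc
Got1: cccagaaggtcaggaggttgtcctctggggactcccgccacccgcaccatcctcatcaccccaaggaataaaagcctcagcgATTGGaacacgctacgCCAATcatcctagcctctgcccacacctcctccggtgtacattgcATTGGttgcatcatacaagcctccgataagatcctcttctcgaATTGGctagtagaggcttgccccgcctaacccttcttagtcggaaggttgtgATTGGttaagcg
Tat: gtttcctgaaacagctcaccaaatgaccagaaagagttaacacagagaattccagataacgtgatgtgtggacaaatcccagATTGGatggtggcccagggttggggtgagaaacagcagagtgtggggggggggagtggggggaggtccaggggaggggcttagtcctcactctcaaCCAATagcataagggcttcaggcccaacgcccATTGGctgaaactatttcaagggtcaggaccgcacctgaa
Otc: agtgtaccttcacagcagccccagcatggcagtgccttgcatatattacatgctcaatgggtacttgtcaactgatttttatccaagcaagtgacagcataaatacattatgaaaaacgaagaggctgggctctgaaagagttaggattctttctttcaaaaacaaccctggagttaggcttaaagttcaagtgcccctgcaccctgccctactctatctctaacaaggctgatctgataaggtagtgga
Got1 held 5 CCAAT boxes, Tat 3 and Oat 2, and the windows of Ass1, Afmid and Otc held none.

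Over the 250 bases before the start, a CCAAT box on either strand was present in 18 of the 40 member promoters (45.0%) and in 33.8% of all 32851 promoters of the same length. A TATA box (TATAAA) was present in 6 members (15.0%) and in 12.4% of all promoters. The other letters searched, on both strands, were an HNF4 element (CAAAGTCCA), a C/EBP element (TTGCNNAA), the core of a cAMP response element (TGACG) and the core of a glucocorticoid receptor element (TGTTCT). They were present in 1, 3, 2 and 3 members, or 2.5%, 7.5%, 5.0% and 7.5%, against 0.384%, 9.56%, 17.8% and 16.1% of all promoters. None of the 6 promoters shown held any of these other elements. Agxt2 was the member with the HNF4 letters. The CCAAT and TATA searches were added after the sequences had been read, and a match describes letters only.

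The first comparison asked how these enzymes differed between Old and Adult livers under vehicle. At an adjusted p under 0.05, 11 of the 49 members were lower in Old than in Adult livers and 0 were higher. Among all 15808 tested genes, 2.07% were lower and 4.71% higher by the same call, so the members' share of lower calls, 22.4%, stood well above the background. Because the members were chosen with earlier results of these data known, this contrast is a description and not an independent test. The members that fell covered the urea cycle (Ass1), glutamine and ornithine use (Gls2 and Oat), alanine (Gpt), tyrosine (Hpd), tryptophan (Afmid and Kynu), histidine (Uroc1 and Amdhd1) and the branched chains (Ivd and Hibadh). Over all 49 members the median log2 fold change was -0.64, against 0.07 over all tested genes, and 42 of the 49 values were negative. In 18 members every Old liver lay below every Adult liver, a separation that 4.48% of the tested genes showed, and no member had every Old liver above.

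**Figure D1:**
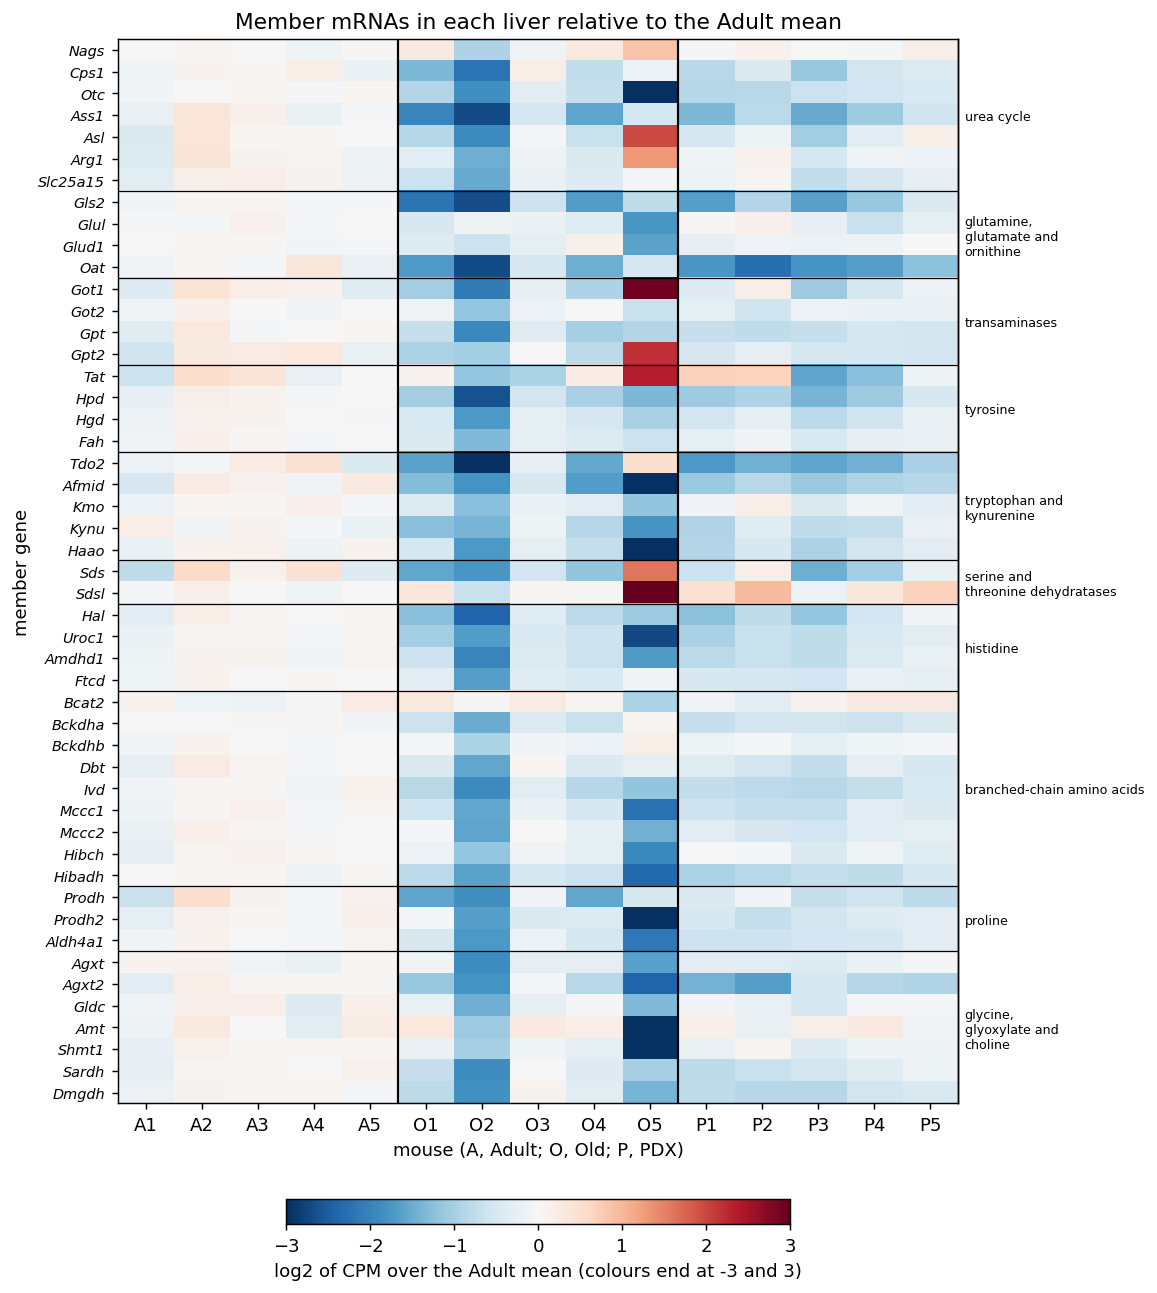
Heat map of the 49 members (rows, grouped by role) in the 15 livers (columns), coloured by the log2 ratio of CPM to the Adult mean, with colours ending at -3 and 3. Blue dominates the Old and PDX columns, most strongly in O2, and O5 holds both the lowest value (Otc, at -4.39) and the highest (Sdsl, at 4.19).

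These calls sat close to the threshold and moved with single libraries. Without O2 and O5, 12 members were lower in Old (background 2.26%) and 10 of them were among the 11 above, while the median log2 fold change fell in size to -0.40. Kynu was lost (-0.68, adjusted p = 0.0774), Otc and Bckdha were added at -0.61 and -0.56, and the log2 fold changes of the 10 others lay between -1.34 (Gls2) and -0.56 (Amdhd1). Leaving out any 1 Adult mouse left 0 members called (background 0.299% to 0.404%), with smallest adjusted p between 0.0537 and 0.0654. The count was 3 without O2 (background 0.945%), 21 without O3 (4.99%) and 17 without O5 (4.54%), so the calls over all genes moved in the same direction. It was 7 without O1 (2.21%) and 7 without any of P1, P2, P3 and P4 (1.27% to 1.47%). A fit of the 10 Adult and Old mice alone called 0 members (background 0.146%), and the Wald test of DESeq2 called 19 lower (background 4.02%) and 0 higher.

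In the urea cycle, 1 of 7 members passed the test. Ass1 (chr2:31470207-31520672, plus strand) encodes argininosuccinate synthase, which joins citrulline and aspartate. It was at 1384, 2078, 1785, 1381 and 1567 CPM in A1 to A5, 411, 253, 1121, 542 and 1119 CPM in O1 to O5 and 639.6, 929.6, 567, 769.5 and 1078 CPM in P1 to P5. All Old livers lay below all Adult livers, with O2 and O1 the lowest, and the log2 fold change was -1.25 ± 0.35 (SE), adjusted p = 0.0476. Otc (chrX:10252305-10321024, plus strand), the mitochondrial transcarbamylase that makes citrulline, was at 589, 617, 652, 597 and 644 CPM in A1 to A5, 336, 174, 487, 386 and 29.0 CPM in O1 to O5 and 339, 348, 399, 413 and 451 CPM in P1 to P5. Its Old and Adult livers did not overlap either, but O5 lay far below every other mouse and the log2 fold change of -1.13 ± 0.46 (SE) did not pass (adjusted p = 0.124). Without O2 and O5 it did pass.

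Cps1 (chr1:67123026-67231259, plus strand), the entry enzyme of the cycle, was at 3769, 4449, 4279.8, 4636 and 3563 CPM in A1 to A5, 1622, 893, 4707, 2483 and 3675 CPM in O1 to O5 and 2324, 3063, 1866, 2801 and 3081 CPM in P1 to P5. O3 was above every Adult liver and O2 was at 0.216 times their mean, and the log2 fold change was -0.63 ± 0.34 (SE), adjusted p = 0.245. Asl (chr5:130011258-130029247, minus strand) splits argininosuccinate into arginine and fumarate. It was at 417, 201, 742, 478 and 2994 CPM in O1 to O5 against 561, 978, 791, 775 and 753 CPM in A1 to A5, and its log2 fold change was 0.32 ± 0.54 (SE), adjusted p = 0.731. Without O5 it turned to -0.75. Arg1, the arginase that releases urea, had 4461 CPM in O5 and 649 CPM in O2 on either side of an Adult range of 1344 to 2335 CPM. Nags, which makes the activator of Cps1, and Slc25a15, the ornithine carrier of the mitochondrial membrane, had log2 fold changes of 0.18 (adjusted p = 0.635) and -0.49 (adjusted p = 0.191).

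Of the 4 members that handle glutamine, glutamate and ornithine, 2 fell. Gls2 (chr10:128194457-128210004, plus strand), the liver glutaminase that feeds ammonia to the urea cycle, was at 725, 823, 824, 744 and 759 CPM in A1 to A5, 169.8, 121, 501, 241 and 455 CPM in O1 to O5 and 245, 423, 252, 349 and 576 CPM in P1 to P5. Adult livers lay within a narrow band and all Old livers below it, with a log2 fold change of -1.38 ± 0.35 (SE), adjusted p = 0.0339. Oat (chr7:132557478-132576398, minus strand) encodes ornithine aminotransferase, which turns ornithine into the precursor of glutamate and proline. It was at 1535, 1689, 1618, 2111 and 1414 CPM in A1 to A5, 509, 258, 1171, 597 and 1146 CPM in O1 to O5 and 491, 345, 488, 523 and 703 CPM in P1 to P5. All 10 livers of the Old and PDX groups were below every Adult liver, and the log2 fold change of Old over Adult was -1.18 ± 0.34 (SE), adjusted p = 0.0484. Glul, the glutamine synthetase of pericentral hepatocytes, was lower in every Old liver than in every Adult liver, at 342 to 1037 against 1100.1 to 1257 CPM, without passing the test (log2 fold change -0.49 ± 0.25 (SE), adjusted p = 0.216). Glud1, glutamate dehydrogenase, gave a log2 fold change of -0.45 ± 0.23 (SE), adjusted p = 0.224.

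Among the 4 transaminases only Gpt fell. Gpt (chr15:76695716-76699686, plus strand), the cytosolic alanine transaminase, was at 482, 764, 604, 615 and 643 CPM in A1 to A5, 383, 159, 479, 308 and 336 CPM in O1 to O5 and 379.9, 365, 379, 424 and 423 CPM in P1 to P5. Each Old liver was below each Adult liver, though O3 and A1 nearly met, and the log2 fold change was -0.90 ± 0.23 (SE), adjusted p = 0.0322. Its mitochondrial counterpart Gpt2 (chr8:85492576-85527560, plus strand) was at 252, 463, 452, 475 and 329.5 CPM in A1 to A5, 199.6, 189, 386, 220.5 and 1751 CPM in O1 to O5 and 270.4, 323, 266, 264 and 259 CPM in P1 to P5. O5 was several times above all other mice, and without it the log2 fold change of 0.48 ± 0.52 (SE) turned to -0.67. Got1 (chr19:43499752-43524605, minus strand), the cytosolic aspartate transaminase, showed the same form, at 205, 98.9, 357, 223 and 3204 CPM in O1 to O5 against 326, 565, 484, 462 and 327 CPM in A1 to A5. Its log2 fold change was 0.92 ± 0.72 (SE), adjusted p = 0.433, and it turned to -0.97 without O5. Got2, the mitochondrial aspartate transaminase, was at 135 to 299 CPM in Old and 283 to 333 CPM in Adult livers (log2 fold change -0.37 ± 0.19 (SE), adjusted p = 0.218).

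Tyrosine breakdown runs from Tat through Hpd and Hgd to Fah. Hpd (chr5:123171807-123182727, minus strand) fell, at 3045, 4131, 3941, 3512 and 3655 CPM in A1 to A5, 1769, 590.2, 2470.3, 1865 and 1436 CPM in O1 to O5 and 1747, 1900.0, 1385, 1738 and 2612 CPM in P1 to P5. Its log2 fold change was -1.17 ± 0.30 (SE), adjusted p = 0.0331, with no overlap between Old and Adult livers and O2 the lowest. Hgd, homogentisate dioxygenase, and Fah, the last enzyme of the route, also did not overlap between the groups, at 234 to 639 against 686 to 841 CPM and 293 to 609 against 683 to 822 CPM. Their adjusted p, 0.066 and 0.0588, missed the threshold. Tat (chr8:109990437-109999803, plus strand), the hormone-responsive transaminase at the start of the route, was at 1687, 3697, 3429.8, 2242 and 2623 CPM in A1 to A5, 2824, 1177, 1352, 3065 and 13538 CPM in O1 to O5 and 4222, 4186, 885, 1102 and 2385 CPM in P1 to P5. It varied widely in all 3 groups, O5 was the highest, and the log2 fold change was 0.68 ± 0.62 (SE), adjusted p = 0.506. Without O5 it turned to -0.38.

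In the tryptophan and kynurenine route, 2 of 5 members fell. Afmid (chr11:117825924-117839908, plus strand), the formamidase that yields kynurenine, was at 82.2, 139, 128, 108 and 141 CPM in A1 to A5, 47.7, 33.4, 84.1, 36.7 and 10.2 CPM in O1 to O5 and 53.6, 65.7, 53.7, 62.2 and 64.2 CPM in P1 to P5. O3 overlapped the lowest Adult liver while O5 was far below the rest, and the log2 fold change was -1.50 ± 0.37 (SE), adjusted p = 0.0297. Kynu (chr2:43555329-43682715, plus strand) encodes kynureninase. It was at 249, 203, 234, 210.0 and 189 CPM in A1 to A5, 90.8, 81.3, 195, 119 and 62.7 CPM in O1 to O5 and 116, 169, 128, 131 and 186 CPM in P1 to P5. O3 again reached the Adult range, and the log2 fold change was -0.98 ± 0.25 (SE), adjusted p = 0.0339. Tdo2 (chr3:81957090-81976202, minus strand), the dioxygenase that opens the route, was at 1304, 1426, 1746, 2006 and 1096 CPM in A1 to A5, 489, 163, 1205, 512 and 2078 CPM in O1 to O5 and 446, 547, 492, 546 and 749 CPM in P1 to P5. Its Old values spanned more than 10-fold, with O5 above and O2 below every Adult liver, so that the log2 fold change was -0.77 ± 0.47 (SE), adjusted p = 0.305. Kmo, kynurenine 3-monooxygenase, was at 227, 126, 263, 242 and 133 CPM in O1 to O5 and 266 to 334 CPM in Adult livers (log2 fold change -0.61 ± 0.21 (SE), adjusted p = 0.076). Haao, which acts after Kmo and Kynu on the way to NAD, was at 65.9 CPM in O5 and at 237 to 646 CPM in the other Old livers, all below an Adult range of 681 to 857 CPM (adjusted p = 0.13).

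Histidine is degraded in turn by Hal, Uroc1, Amdhd1 and Ftcd. Of these 4, 2 fell. Uroc1 (chr6:90333284-90364551, plus strand), urocanase, was at 917, 1113, 1114, 1012 and 1085 CPM in A1 to A5, 504, 326, 765, 676 and 158 CPM in O1 to O5 and 532, 663, 612, 764 and 839 CPM in P1 to P5. Old and Adult livers did not overlap, and the log2 fold change was -1.11 ± 0.32 (SE), adjusted p = 0.048. Amdhd1 (chr10:93523338-93540033, minus strand), imidazolonepropionase, was at 305, 363, 365, 315 and 358 CPM in A1 to A5, 220.3, 86.5, 254, 217 and 104 CPM in O1 to O5 and 193, 213, 200.3, 257 and 296 CPM in P1 to P5. O2 and O5 were the lowest, the other 3 Old livers were also below every Adult liver, and the log2 fold change was -0.95 ± 0.26 (SE), adjusted p = 0.042. Hal, histidine ammonia-lyase, lies 4033 bases from Amdhd1 on the opposite strand, and its log2 fold change of -1.05 ± 0.31 (SE) just missed the threshold (adjusted p = 0.0518). Ftcd, which passes the histidine carbon to folate, gave -0.49 (adjusted p = 0.166).

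Among the 9 members for branched-chain amino acids, all log2 fold changes were negative and 2 passed. Ivd (chr2:118861954-118882909, plus strand), isovaleryl-CoA dehydrogenase of the leucine route, had the smallest adjusted p of all members. It was at 303, 346, 336, 303 and 357 CPM in A1 to A5, 183, 87.6, 262, 181 and 144 CPM in O1 to O5 and 197, 190.4, 183, 201 and 237 CPM in P1 to P5, and its log2 fold change was -0.94 ± 0.21 (SE), adjusted p = 0.0258. Hibadh (chr6:52546228-52640389, minus strand), a dehydrogenase of the valine route, was at 404, 424, 419, 365 and 413 CPM in A1 to A5, 235, 132, 278, 259 and 79.7 CPM in O1 to O5 and 208, 226, 247, 239.6 and 289 CPM in P1 to P5. Old livers lay below all Adult livers in both genes, by a narrower margin in O3, and the log2 fold change of Hibadh was -1.04 ± 0.26 (SE), adjusted p = 0.0331. The 3 subunits Bckdha, Bckdhb and Dbt of the branched-chain ketoacid dehydrogenase gave -0.54, -0.18 and -0.46 (adjusted p from 0.106 to 0.5), the methylcrotonyl-CoA carboxylase subunits Mccc1 and Mccc2 gave -0.85 and -0.53, and Hibch gave -0.59. Bcat2 was level, at -0.01 ± 0.20 (SE).

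**Figure D2:**
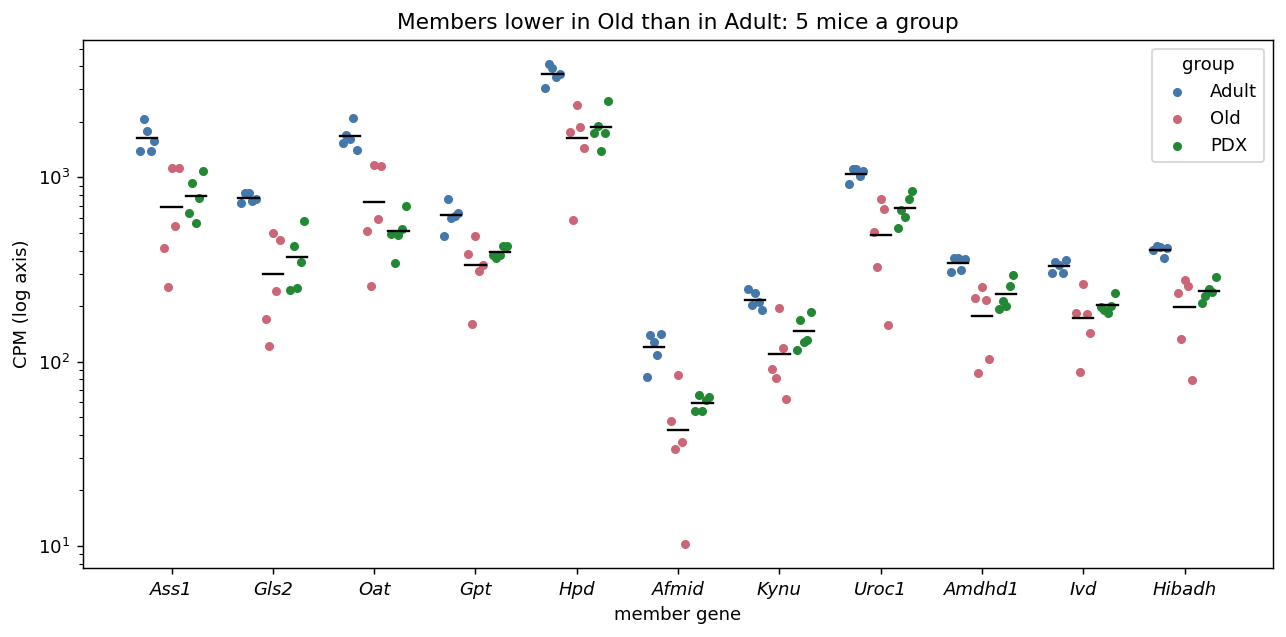
CPM (log axis) of the 11 members that were lower in Old than in Adult livers, with 1 point per mouse and a black bar at the mean of each group of 5. In 9 of the 11 every Old point lies below every Adult point, and the exceptions are Afmid and Kynu, where O3 reaches the Adult range.

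No member of the proline, glycine or serine groups passed the test with all 15 mice. Prodh (chr16:18060357-18090203, minus strand), proline dehydrogenase, was at 221, 491, 377, 342 and 382 CPM in A1 to A5, 118, 97.5, 328, 119.6 and 252 CPM in O1 to O5 and 261, 329.7, 217, 232 and 205 CPM in P1 to P5 (log2 fold change -0.99 ± 0.32 (SE), adjusted p = 0.0675). O1, O2 and O4 were below every Adult liver and O3 and O5 were inside the Adult range. Prodh2, which degrades hydroxyproline, was at 19.6 CPM in O5 and at 116 to 358 CPM in the other Old livers, with 306 to 405 CPM in the Adult group. Aldh4a1, the shared next enzyme, separated Old from Adult completely (log2 fold change -0.83 ± 0.29 (SE), adjusted p = 0.0826). Agxt2 (chr15:10358532-10410153, plus strand), a mitochondrial aminotransferase for glyoxylate and beta-amino acids, was at 145, 207, 189, 189.8 and 187 CPM in A1 to A5, 82.7, 51.9, 177, 103 and 33.9 CPM in O1 to O5 and 67.6, 58.0, 130.4, 100.3 and 97.7 CPM in P1 to P5 (log2 fold change -1.03 ± 0.35 (SE), adjusted p = 0.0755). The other members of its group, Agxt, Gldc, Amt, Shmt1, Sardh and Dmgdh, had log2 fold changes from -0.68 to -0.29, and that of Amt, the aminomethyltransferase of the glycine cleavage system, was 0.00611 without O5.

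The serine dehydratase Sds and its relative Sdsl lie 3715 bases apart and point away from each other (Sds chr5:120476526-120483932, plus strand, and Sdsl chr5:120458186-120472810, minus strand). Sdsl was at 11.0, 13.0, 11.6, 10.5 and 11.7 CPM in A1 to A5, 14.7, 7.02, 11.8, 11.8 and 219 CPM in O1 to O5 and 15.9, 22.8, 10.1, 14.6 and 19.0 CPM in P1 to P5. The log2 fold change was 2.19 ± 0.79 (SE), adjusted p = 0.0893, and without O5 it was -0.0344. Sds, which deaminates serine to pyruvate, was at 176, 447, 331, 408 and 231 CPM in A1 to A5, 102, 88.8, 202, 131 and 914 CPM in O1 to O5 and 193, 345, 108, 148 and 264 CPM in P1 to P5. The other 4 Old livers ranged from 88.8 to 202 CPM, O5 was above every Adult liver, and the log2 fold change was -0.15 ± 0.57 (SE), adjusted p = 0.893. Without O5 it was -1.29 (adjusted p = 0.036), and without O2 and O5 it was -1.13 (adjusted p = 0.0899).

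The members were thus much less uniform in Old than in Adult livers. The coefficient of variation over the 5 mice had a median of 10.4% in the Adult group, 49.3% in the Old group and 15.8% in the PDX group. It was larger in Old than in Adult for 49 of 49 members, and smaller in PDX than in Old for 49 of 49. These counts were not taken over all tested genes, so they do not show a spread particular to the members. Over all tested genes O5 was the lowest of the mice in 28.4% and the highest in 25.9%, and O2 in 12.4% and 20.1%. Much of this spread lay in O2 and O5, since the median over O1, O3 and O4 alone was 16.4% and 35 of 49 members still exceeded their Adult value.

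O2 was low in nearly every role. It had the lowest level of all 15 mice in 32 members (65.3%), against 12.4% of the tested genes, and the highest in 0, against 20.1%. It lay more than 2-fold below the Adult mean in 43 members, a count not taken over all tested genes. The deepest values were 9.27-fold below for Tdo2, 6.49-fold for Ass1, 6.48-fold for Oat, 6.39-fold for Gls2 and 6.20-fold for Hpd. These folds include division by the scaling factor of O2, 1.33, the largest of all mice. Without that factor, the members made up 1.45% of all counted pairs in O2 and 3.04% to 3.91% in the Adult livers. Bcat2 was at 1.01 times and Glul at 0.899 times the Adult mean in the same liver. By the labels O2 had the shortest treadmill distance of the 15 mice, 33.9 m, and 3 positive frailty criteria, with a frailty index of 0.11. Its change in body weight, averaged per week, was 3.07%.

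O5 had members at both ends. It had the lowest level of the 15 mice in 16 members (32.7%) and the highest in 11 (22.4%), shares close to the 28.4% and 25.9% of all tested genes in this library, so extreme levels in O5 were not particular to the members. Otc was 21.4-fold below the Adult mean, Prodh2 18.8-fold, Amt 14.3-fold, Haao 11.9-fold, Afmid 11.7-fold and Shmt1 7.92-fold. Sdsl was at 18.9 times the Adult mean, Got1 at 7.40 times, Tat at 4.95 times, Gpt2 at 4.44 times, Asl at 3.88 times and Sds at 2.87 times. Within the urea cycle Otc and Asl lay at opposite ends of the 15 mice in a single liver. By the labels this mouse had the highest frailty index of the 15 mice, 0.56, with 4 positive frailty criteria and a treadmill distance of 46.6 m. Its change in body weight, averaged per week, was -3.55%.

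**Figure D3:**
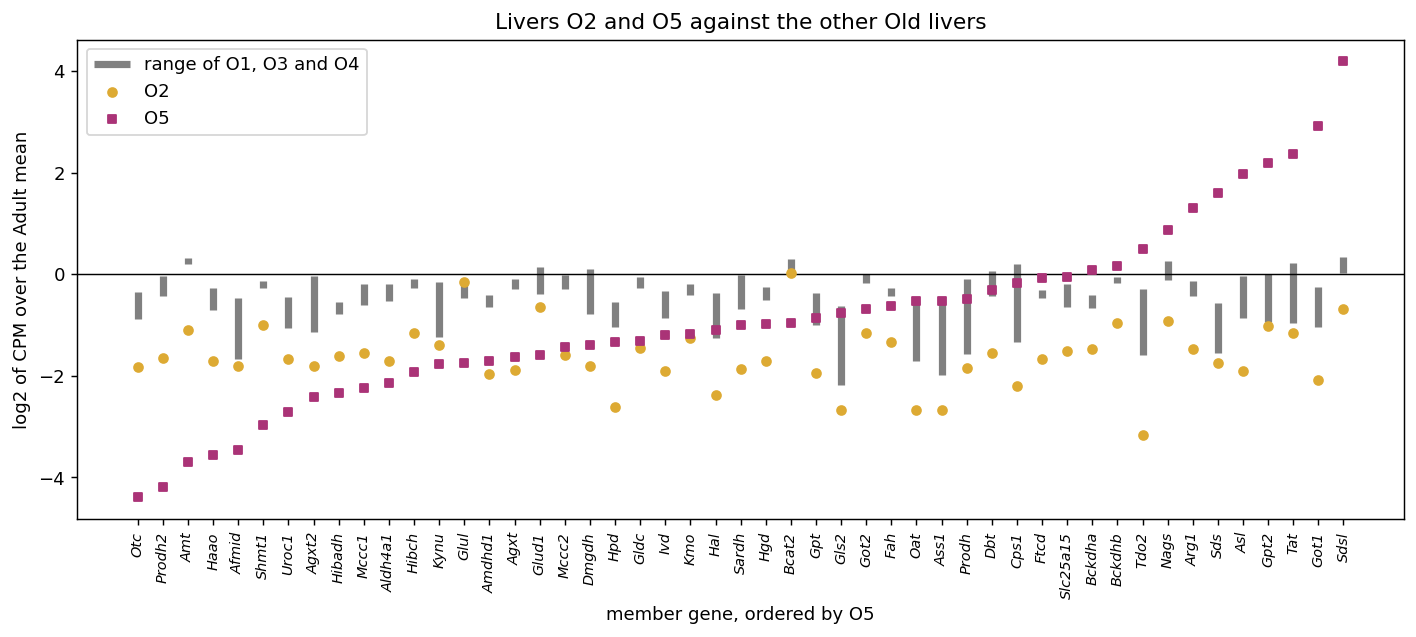
Log2 ratio of CPM to the Adult mean for each member in O2 (circles) and O5 (squares), ordered by O5, with grey bars for the range of O1, O3 and O4. O2 lies below 0 for all members but Bcat2, while O5 runs from -4.39 (Otc) to 4.19 (Sdsl).

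The second comparison set the PDX livers against the same Adult livers. In the fit of all 15 mice 1 of 49 members was lower in PDX (background 0.898%) and 0 were higher (background 1.76%). That member was Oat, with a log2 fold change of -1.71 ± 0.34 (SE), adjusted p = 0.0156, and its mean was 509.8 ± 128 CPM (SD, n = 5) against 1673 ± 265 CPM in the Adult group. Every PDX liver lay below every Adult liver in 25 members, against 9.34% of the tested genes, and the median log2 fold change over the members was -0.50 (all tested genes -0.01). The largest of the values that did not pass were Tdo2 at -1.45 ± 0.48 (SE), adjusted p = 0.112, Gls2 at -1.07 (adjusted p = 0.109), Ass1 at -1.04 (adjusted p = 0.119) and Agxt2 at -1.02 (adjusted p = 0.122). Sdsl had the largest positive value, 0.51 ± 0.76 (SE), adjusted p = 0.762.

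The joint fit takes 1 estimate of spread per gene from all 3 groups, the Old livers included. In a fit of the 10 PDX and Adult mice alone 30 members were lower (background 13.5%) and 1, Sdsl, was higher at 0.52 (background 16.1%). Without O2 and O5 in the joint fit 26 were lower (background 10.2%) and 1, again Sdsl, was higher (background 14.4%). The background rose with the members' count in both fits. By role, the fit of the 10 mice called 4 of 4 histidine, 4 of 5 tryptophan, 3 of 4 tyrosine, 3 of 4 transaminase, 6 of 9 branched-chain, 2 of 3 proline, 2 of 4 glutamine and ornithine, 3 of 7 urea cycle and 3 of 7 glycine members lower, and 0 of the 2 serine dehydratases. The count in the joint fit was 0 without P2 (background 0.267%), 10 without O2 (3.29%), 9 without O5 (5.53%) and 2 without O3 (1.34%).

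**Figure D4:**
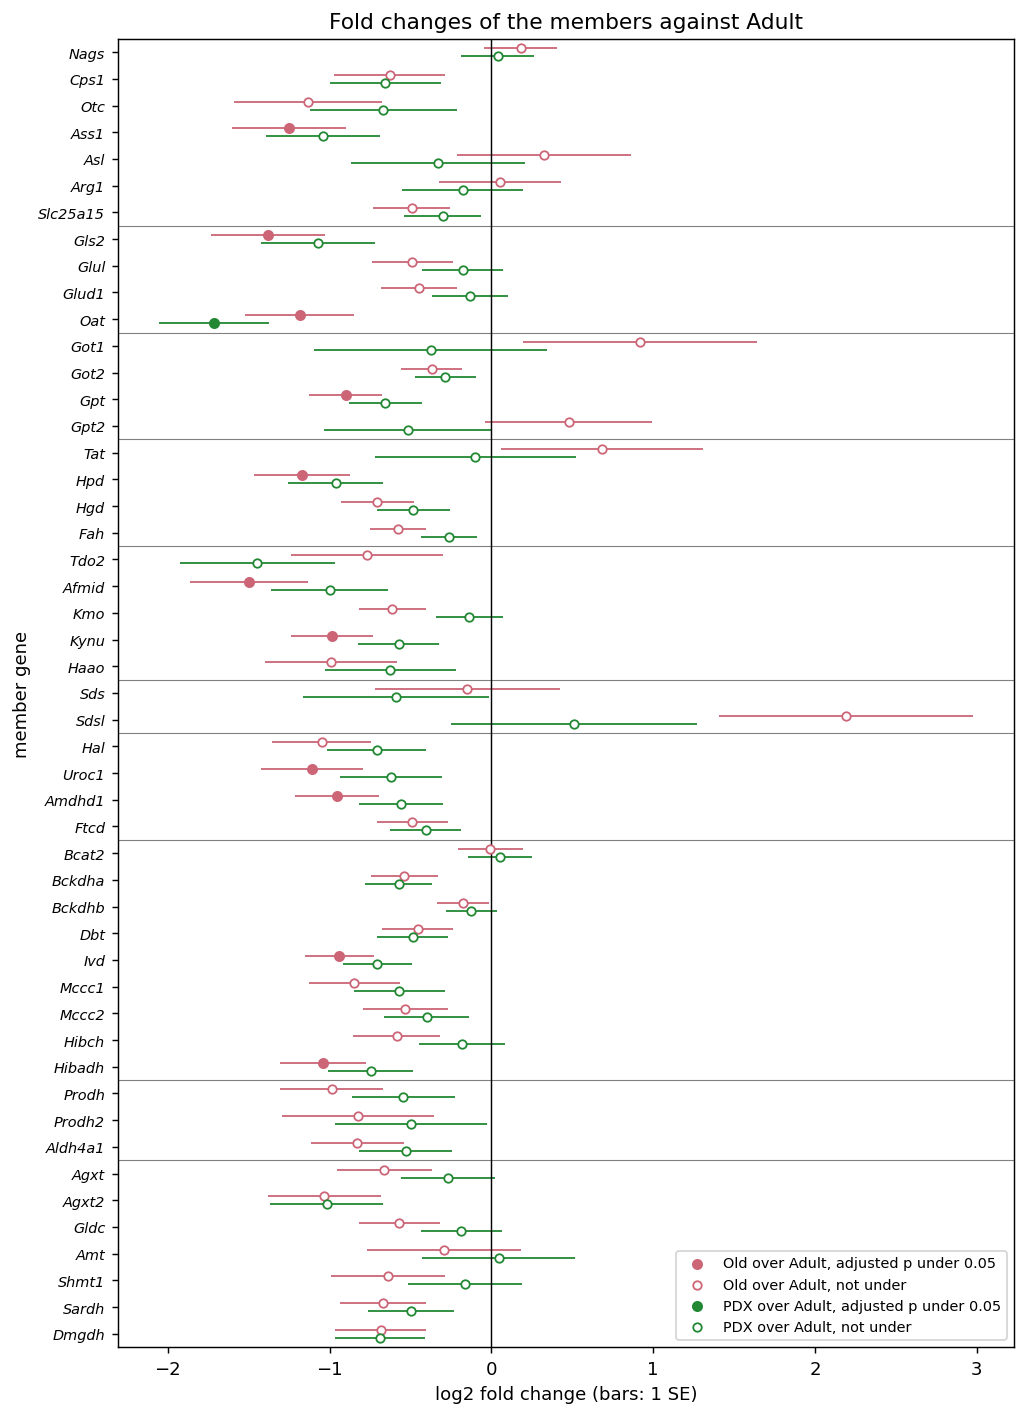
Log2 fold change of each member with 1 SE, Old over Adult and PDX over Adult, from the fit of all 15 mice, with filled points where the adjusted p was under 0.05. The 11 filled Old points and the 1 filled PDX point (Oat) are all to the left of 0, and the Old points of Sdsl, Got1 and Tat to the right of 0 have wide bars.

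The third comparison set PDX against Old livers of the same starting age, at the threshold of 0.25. It called 0 of 49 members and 0 of the 15808 tested genes (0.0%) with edgeR. The smallest adjusted p among members was 0.793. Unadjusted, 2 members were under 0.05 in edgeR's test, about the number that such a cut passes when nothing differs. They were Kmo, with a log2 fold change of 0.47 ± 0.21 (SE), adjusted p = 0.793, and Sdsl, with -1.68 ± 0.77 (SE), adjusted p = 0.793. The Wald test of DESeq2 also called 0 members. No member separated the groups completely, against 0.342% of the tested genes. Kmo was at 285, 349, 224, 283 and 237 CPM in P1 to P5, with P2 above every Adult liver, and at 227, 126, 263, 242 and 133 CPM in O1 to O5. Gpt2, next by p, was at 259 to 323 CPM in PDX livers (log2 fold change -0.99 ± 0.52 (SE), adjusted p = 0.793).

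The median log2 fold change of PDX over Old was 0.22 over the members and -0.07 over all tested genes, and 35 of 49 values were positive. The median was 0.06 without O2, 0.18 without O5 (43 of 49 positive) and 0.00 without O2 and O5. It was 0.40 without O3 (39 of 49 positive) and 0.13 without P5, so it depended on single mice in both directions. Sdsl and Gpt2 changed sign without O5, to 0.54 and 0.15. Oat and Tdo2 had the lowest PDX levels relative to Adult, at 491, 345, 488, 523 and 703 and 446, 547, 492, 546 and 749 CPM in P1 to P5, and their log2 fold changes over Old were -0.53 ± 0.33 (SE), adjusted p = 0.793, and -0.68 ± 0.47 (SE), adjusted p = 0.793. The comparisons share groups, so their values are not independent. For the 11 members that were lower in Old than in Adult livers, the log2 fold change of PDX over Adult was between -1.71 (Oat) and -0.56 (Amdhd1), and that of PDX over Old between -0.53 (Oat) and 0.50 (Afmid).

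Other enzymes and carriers of the pathway were taken from fixed lists, also chosen with earlier results of these data known. Of 41 tested enzymes of amino acid catabolism outside the set, 7 were lower and 0 higher in Old than in Adult livers, with a median log2 fold change of -0.59. Among them Acadsb and Acad8, acyl-CoA dehydrogenases of the isoleucine and valine routes, gave -0.97 ± 0.24 (SE), adjusted p = 0.0321, and -0.70 ± 0.18 (SE), adjusted p = 0.0331. In PDX against Adult livers 1 of these enzymes, Etnppl, was lower. The counts without O2 and O5 were 7 lower in Old and 24 lower in PDX, both against Adult livers. In that fit 2.26% of all tested genes were lower and 4.85% higher in Old, and 10.2% were lower and 14.4% higher in PDX. Of 8 enzymes of amino acid synthesis, 3 were higher in Old livers and 0 lower, and without O2 and O5 there were 4 higher in Old and 6 higher in PDX livers. Phgdh, the first step of serine synthesis, was at 0.225, 0.106, 0.228, 0.110 and 0.0861 CPM in A1 to A5 and 0.425, 2.84, 1.73, 0.260 and 0.721 CPM in O1 to O5 (log2 fold change 2.97 ± 0.60 (SE), adjusted p = 0.0173), a low level in every liver and highest in O2. Psat1, the next step, gave 2.05 ± 0.43 (SE), adjusted p = 0.0192.

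Of 16 tested amino acid and ammonia carriers, 0 passed in Old or PDX against Adult livers. Without O2 and O5 there were 0 in Old and 3 lower in PDX (background 10.2%). Slc7a2, a carrier of arginine and ornithine, was at 1739 CPM in O5 and 73.5 to 314 CPM in the other Old livers, with 290.1 to 683 CPM in the Adult group. Of 18 regulators of these enzymes, 0 passed, and the bile acid receptor Nr1h4 had the smallest p, with a log2 fold change of -0.80 ± 0.25 (SE), adjusted p = 0.0606. Leaving out O2 and O5 gave 0 in Old, and 4 lower (background 10.2%) and 1 higher (background 14.4%) in PDX livers. Position in the lobule was read from markers outside the set. None of 8 periportal markers passed, and of 12 pericentral markers Cyp2e1 and Cyp1a2 were lower in Old livers, with log2 fold changes of -1.50 ± 0.31 (SE), adjusted p = 0.0184, and -2.08 ± 0.48 (SE), adjusted p = 0.0262. Both were also lower in PDX than in Adult livers. Without O2 and O5, 4 pericentral markers were lower in Old (background 2.26%) and 6 in PDX (background 10.2%). The periportal count was 0 in Old, with 1 lower and 2 higher in PDX. The part of lobular position in the members' values was not tested.

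Some genes of other cells and of inflammation also differed between Old and Adult livers. Neutrophil markers passed upward in 5 of 5 tested genes, B cell markers in 3 of 4, T cell markers in 0 of 5, Kupffer cell markers in 0 of 7, stellate cell markers in 2 of 6 (Col1a1 and Des), and sinusoidal endothelial and cholangiocyte markers in 0 of 6 and 0 of 4. In the fit that left out O2 and O5, 3 neutrophil and 2 B cell markers passed upward in Old livers and 0 of the other cell types. The same fit called 5 neutrophil, 4 B cell, 4 T cell, 6 Kupffer cell, 1 stellate cell and 1 cholangiocyte marker higher and 1 stellate cell and 2 sinusoidal endothelial markers lower in PDX than in Adult livers. Over all tested genes that fit called 14.4% higher and 10.2% lower in PDX. In Old livers the summed levels reached 159.8 CPM for neutrophil, 97.4 CPM for B cell, 155.8 CPM for T cell, 2753 CPM for Kupffer cell and 839.7 CPM for stellate cell markers. The neutrophil, B, T and Kupffer cell sums were all those of O2, where the 49 members summed to 10926 CPM, and the stellate cell sum was that of O5. P2, a PDX liver, had a higher neutrophil sum than O2, at 175.3 CPM. Acute-phase genes, which hepatocytes make in inflammation, were higher in 5 of 8 in Old and in 7 of 8 in PDX against Adult livers, and their sum reached 23999 CPM in O5 and 38609 CPM in P2. These counts were 4 and 8 without O2 and O5. Of 8 hepatocyte markers 0 passed in either direction, and without O2 and O5 there were 3 higher in Old and 4 higher and 1 lower in PDX livers. The part of these genes in the members' values was not tested.

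The mice were euthanized in batches from morning to late afternoon, with the groups taking turns. The labels give no batch for each mouse, so no comparison within batches was made, and the hour was not used. None of 13 core clock genes passed in Old or PDX against Adult livers. Without O2 and O5 there were 0 in Old and 3 lower in PDX (background 10.2%), Dbp among them. Dbp, a clock output with a steep daily rhythm, was at 40.5, 11.4, 5.02, 189 and 4.94 CPM in A1 to A5, at 56.7 CPM in O3 and 20.8 CPM in O5, at 3.92 CPM at most in the other Old livers and at 2.29 to 3.75 CPM in the PDX livers. A4 was also the highest Adult liver for Oat and Tdo2, and O3 and O5 were the highest Old livers for these genes. These genes were picked from the members, and others differed. A1, next to A4 in Dbp, was at 0.917 times the Adult mean for Oat and 0.861 times for Tdo2. A4 was the highest of all mice in 1 member, and A2 in 16. The part of collection time in these values was not tested.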

How the data were processed

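Bulk liver mRNA, as 1 library per mouse, was sequenced after poly(A) selection, for 15 mice in 3 groups of 5. The authors aligned the paired reads of 50 bases with STAR (2.6.0c) to mm10 and counted unique proper pairs on the gene's strand with featureCounts (Subread 1.6.2) on Ensembl 100, leaving out mitochondrial genes. Their deposited counts carry no normalization. A further table of log2-scale values, which the authors made with the variance stabilizing transformation of DESeq2 (1.23.10), served in 1 alternative. All columns had a sample (0 without). Of 55450 gene IDs, 55104 received a symbol from GENCODE M21 (GRCm38, the assembly of mm10), which also gave the coordinates. Promoters are RefSeq sequences on GRCm38.p6.

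Counts were tested with edgeR (4.0.16) in R 4.3.3: filterByExpr (minimum count 10, minimum total 15), TMM scaling and a quasi-likelihood fit of all 15 mice, with Benjamini-Hochberg adjustment over all 15808 tested genes. The threshold was 0.05, and 0.25 for PDX against Old, as in the study. The steps were tested on simulated data. Alternatives were DESeq2 (1.42.0), limma (3.58.1), other filters and scalings, 2-group fits and fits without single mice. Library totals without TMM, and the other lists without O2 and O5, were added after the data were seen. CPM ratios in the heat map used an offset of 0.5.

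The members and lists were chosen with earlier results of these data known. Values per mouse are given for members past a threshold and for the smallest p of each role group (Old against Adult). They are also given for the 3 smallest p of PDX against Old, 16 members in all. A further 9 (Cps1, Otc, Asl, Got1, Tat, Tdo2, Sds, Prodh2 and Amt) were chosen after their values were seen. Kmo is given as a range in Adult livers, and Asl and Got1 lack the PDX mice. Prodh2 is given mainly as ranges and Amt as folds only. Other lists name at most 3 genes by the same p, except Slc7a2 and Etnppl, named after their values were seen, and 2 genes that this would name are not reported here. Each mouse was a separate animal. FPKM used the summed exon length of a gene.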

Additional observations from a re-analysis of the deposited data

Results flagged for a closer look

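Dixon's test for a single extreme mouse was applied to the CPM of all 49 members in each of the 3 groups, and 10 of the 147 sets of 5 values passed its critical value of 0.71. Chance alone flags about 1 in 20 sets, and sets that share mice are not independent of each other. Of these 10, 7 were O5 within the Old group. Its values were 13538 CPM for Tat, 4461 CPM for Arg1, 3204 CPM for Got1, 2994 CPM for Asl, 1751 CPM for Gpt2, 914 CPM for Sds and 219 CPM for Sdsl, each far above the next Old liver. P2 passed for Gpt2, as the highest PDX liver at 322.6 CPM, and for Got2, as the lowest at 197 CPM. A5 passed for Bckdha, as the lowest Adult liver at 252 CPM. No value of O2 passed.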

How the results depend on the processing

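The count of members lower in Old than in Adult livers, 11, was 19 with DESeq2 (4.02% of all genes lower), 5 without a low-count filter (0.529%), 0 in the fit of 2 groups (0.146%), 28 with voom sample weights (7.44%) and 0 to 21 without single mice (0.299% to 4.99%). It was 9 to 14 under the other filters and scalings, the thinned counts, the deposited log2 values and without O2 and O5. The fit that holds the replicate block gave 0 (0.43%), with a smallest adjusted p of 0.0527. Same-numbered mice are different animals. The mean correlation of their deviations was -0.168 for Old and Adult, 0.092 for PDX and Old and 0.031 for PDX and Adult. For other pairs it was 0.044, -0.022 and -0.0078. The labels give no batch for each mouse, so whether the shared number follows a batch was not tested. The count lower in PDX than in Adult, 1, was 6 with DESeq2 (2.97%), 30 in the fit of 2 groups (13.5%), 31 with voom (16.1%), 26 without O2 and O5 (10.2%) and 0 to 10 without single mice (0.267% to 5.53%), and the count higher, 0, was 1 in the fit of 2 groups and 1 without O2 and O5. All 3 medians kept their sign, though that of PDX over Old was 0.00 without O2 and O5. The cause of these differences was not tested.

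Folds of Old over Adult changed sign for 7 of 25 members. With the replicate block they were -0.0242 for Gpt2, -0.17 for Asl and -0.12 for Got1. With voom they were -0.73 for Gpt2, -0.68 for Asl, -0.86 for Got1, -0.0530 for Tat and 0.0609 for Amt. On the deposited log2 values they were -0.10, -0.29 and -0.27 for Gpt2, Asl and Got1. Without O2 and O5 they were -0.54 for Gpt2, -0.49 for Asl, -0.72 for Got1, -0.17 for Tat and 0.26 for Amt. Without single mice they ran from -0.67 to 0.73 for Gpt2, -0.75 to 0.59 for Asl, -0.97 to 1.21 for Got1, -0.38 to 0.93 for Tat, -1.29 to 0.11 for Sds, -0.0344 to 2.48 for Sdsl and -0.47 to 0.00611 for Amt. Folds of PDX over Old were 0.22 for Gpt2 and 0.32 for Sdsl with voom, 0.0482 and 0.37 without O2 and O5, and from -1.24 to 0.15 and -1.96 to 0.54 without single mice. None of 16 folds of PDX over Adult changed sign. Depth did not limit the members, since thinning to the smallest library kept 11 calls.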
